A study of Rattus norvegicus with 16 samples.

Results

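Genes of the cell cycle and of DNA replication were followed in the bruised rat cortex over the first 48 h after a fluid percussion, a pressure pulse of 3.3 ± 0.3 atm against the dura that leaves a contusion. They are 49 genes listed by name. A gene entered through every probe set of the deposited array table whose only gene symbol, or an alias of it, was on that list, and its probe sets were averaged. By that rule 46 of the 49 genes were measured, among 14218 genes in all. They are the G1 cyclin Ccnd1, 17 genes of S phase and 28 genes of mitosis. Rrm2, Cdc6 and Nek2 had no probe set of their own and were not analysed here.

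A cell that enters the cycle first raises D-type cyclins, whose kinases release the E2F transcription factors. E2F then turns on the genes that license and copy DNA, and a later wave, with cyclins A and B and Cdk1 at its centre, builds the spindle, segregates the chromosomes and divides the cell. Neurons of the adult cortex have left the cycle, while microglia, oligodendrocyte precursors, astrocytes, vessel cells and blood-borne cells can enter it after injury.

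All animals were male Wistar rats, 8 weeks old, and all of them, shams included, had a craniectomy over the right parietal cortex 48 h before the percussion or the sham procedure. The percussion was moderate, and after saline perfusion the lateral cortex of the contusion area was taken 3, 6, 12 or 48 h later. Injured cortex gave 3 arrays at each of the 4 times, and sham cortex gave 1 array at each time. As in the submitters' own design, the 3, 6 and 12 h shams served as 1 control group of 3 arrays, called the early shams here, and the 48 h sham, whose profile the submitters found distinct, was kept apart as the control of the injured 48 h arrays. The labels do not say whether the arrays of a group came from separate animals, so p-values measure the spread between arrays, part of which may be technical. The tissue is bulk cortex, in which fewer cells of a type and less RNA per cell cannot be told apart.

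Values are log2 intensities that the deposited table gives relative to the middle of the 16 arrays for each probe set. They place the arrays against each other but carry no absolute level and no detection call, so members are not compared in level. The median over all genes lay between -0.01 and 0.01 in every array, and no pair of arrays was identical. The values of 1 array, injured 12 h replicate 2, were spread more widely than those of the other early arrays (SD over genes 0.37), and its polyA spike-in controls averaged -1.69 against -0.18 to 0.50 in the other 15 arrays. Differences below are log2 differences between group means with the standard error (SE) of 1 limma fit of all 16 arrays. A gene is called at an adjusted p (Benjamini-Hochberg over 14218 genes) under 0.05. The fit takes 1 spread per gene for all groups. In many members the injured 48 h arrays were spread more widely, as in Cdk1 (SD 1.05, against 0.09 at 12 h and 0.19 in the early shams). In others, such as Ccne1, they were not (0.12, against 0.28 and 0.15). For the former, SE and adjusted p can be too small at 48 h and too large earlier.

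The 3 members of each list with the largest rise at 48 h, among those with a single RefSeq promoter window, are shown with the DNA around their start sites, so that the motifs of both waves can be set side by side. Each window is 300 bases (250 before and 50 after the start) of the GRCr8 assembly, 5′ to 3′ along the gene. Capitals mark 3 motifs, searched on both strands and allowed to overlap. They are the E2F site (TTTCCCGC, TTTCGCGC, TTTGCCGC or TTTGGCGC), the cell cycle homology region or CHR (TTTGAA or TTCGAA), and the CCAAT box (CCAAT). From S phase, with E2F sites and CCAAT boxes in capitals,
Pclaf (chr8:75315467-75315766, plus strand): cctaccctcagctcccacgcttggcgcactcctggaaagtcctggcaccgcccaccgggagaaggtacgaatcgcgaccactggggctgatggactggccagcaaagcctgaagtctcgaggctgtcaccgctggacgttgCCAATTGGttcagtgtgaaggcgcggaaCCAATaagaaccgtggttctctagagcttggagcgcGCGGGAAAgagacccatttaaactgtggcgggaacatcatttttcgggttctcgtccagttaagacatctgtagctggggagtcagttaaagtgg
Mcm5 (chr19:13488563-13488862, plus strand): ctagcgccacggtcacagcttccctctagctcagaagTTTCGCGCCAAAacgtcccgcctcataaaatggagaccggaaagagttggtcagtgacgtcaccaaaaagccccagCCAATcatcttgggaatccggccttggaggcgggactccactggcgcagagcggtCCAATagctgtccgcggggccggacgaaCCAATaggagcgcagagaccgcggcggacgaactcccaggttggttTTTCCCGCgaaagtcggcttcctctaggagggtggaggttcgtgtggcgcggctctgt
Mcm6 (chr13:42404303-42404602, minus strand): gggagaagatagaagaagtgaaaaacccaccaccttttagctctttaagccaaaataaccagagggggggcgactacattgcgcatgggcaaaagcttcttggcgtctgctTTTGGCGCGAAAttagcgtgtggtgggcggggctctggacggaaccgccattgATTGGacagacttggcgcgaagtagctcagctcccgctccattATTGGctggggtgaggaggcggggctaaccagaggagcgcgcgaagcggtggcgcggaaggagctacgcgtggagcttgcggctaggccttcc
and from mitosis, with CHR elements and CCAAT boxes in capitals and 1 E2F site in Cdk1,
Cks2 (chr17:13727470-13727769, minus strand): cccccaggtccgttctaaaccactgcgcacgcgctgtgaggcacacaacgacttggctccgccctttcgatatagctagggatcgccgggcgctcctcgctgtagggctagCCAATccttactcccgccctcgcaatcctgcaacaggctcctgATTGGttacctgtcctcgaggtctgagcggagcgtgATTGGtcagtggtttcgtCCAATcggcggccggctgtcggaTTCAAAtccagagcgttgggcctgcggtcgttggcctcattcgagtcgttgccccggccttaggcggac
Cdk1 (chr20:19265043-19265342, plus strand): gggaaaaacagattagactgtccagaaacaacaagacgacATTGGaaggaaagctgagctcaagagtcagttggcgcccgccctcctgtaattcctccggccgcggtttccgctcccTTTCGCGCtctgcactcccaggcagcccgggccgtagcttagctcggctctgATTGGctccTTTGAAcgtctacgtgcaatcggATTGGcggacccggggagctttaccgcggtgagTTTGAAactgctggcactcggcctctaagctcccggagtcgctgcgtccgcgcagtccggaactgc
Ccnb2 (chr8:79981609-79981908, minus strand): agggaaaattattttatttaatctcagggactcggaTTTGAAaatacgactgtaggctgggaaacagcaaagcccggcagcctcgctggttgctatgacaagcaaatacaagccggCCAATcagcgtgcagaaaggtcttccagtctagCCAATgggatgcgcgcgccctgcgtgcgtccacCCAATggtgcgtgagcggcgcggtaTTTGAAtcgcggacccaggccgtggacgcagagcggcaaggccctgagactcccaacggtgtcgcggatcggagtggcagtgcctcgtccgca

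The window of Mcm5 holds 3 E2F words, 2 of them overlapping in opposite directions at -213 and -209 from the start and the other at -8. Pclaf has 1 at -45, and Mcm6 has an overlapping pair at -139 and -135. Cks2, Cdk1 and Ccnb2 each have a CHR within 50 bases before the start, at -19, -16 and -43, and CCAAT boxes upstream of it. Over the whole lists, of 15 S phase genes with a window, 9 (60.0%) held an E2F word, against 1 of 24 mitosis genes (4.2%) and 3.7% of the 11734 measured genes with a window. A CHR stood in 16 of 24 mitosis windows (66.7%), 4 of 15 S phase windows (26.7%) and 15% of windows of measured genes. CHR and CCAAT box together were in 62.5% of mitosis windows, 13.3% of S phase windows and 6.2% of all of them. A match describes letters in this window and was not tested as a site. Windows matched 39 of the 46 members. Ccnd1, Ccne2, Mcm4, Ccna2, Aurkb, Ube2c and Racgap1 had none in the table.

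**Figure D1:**
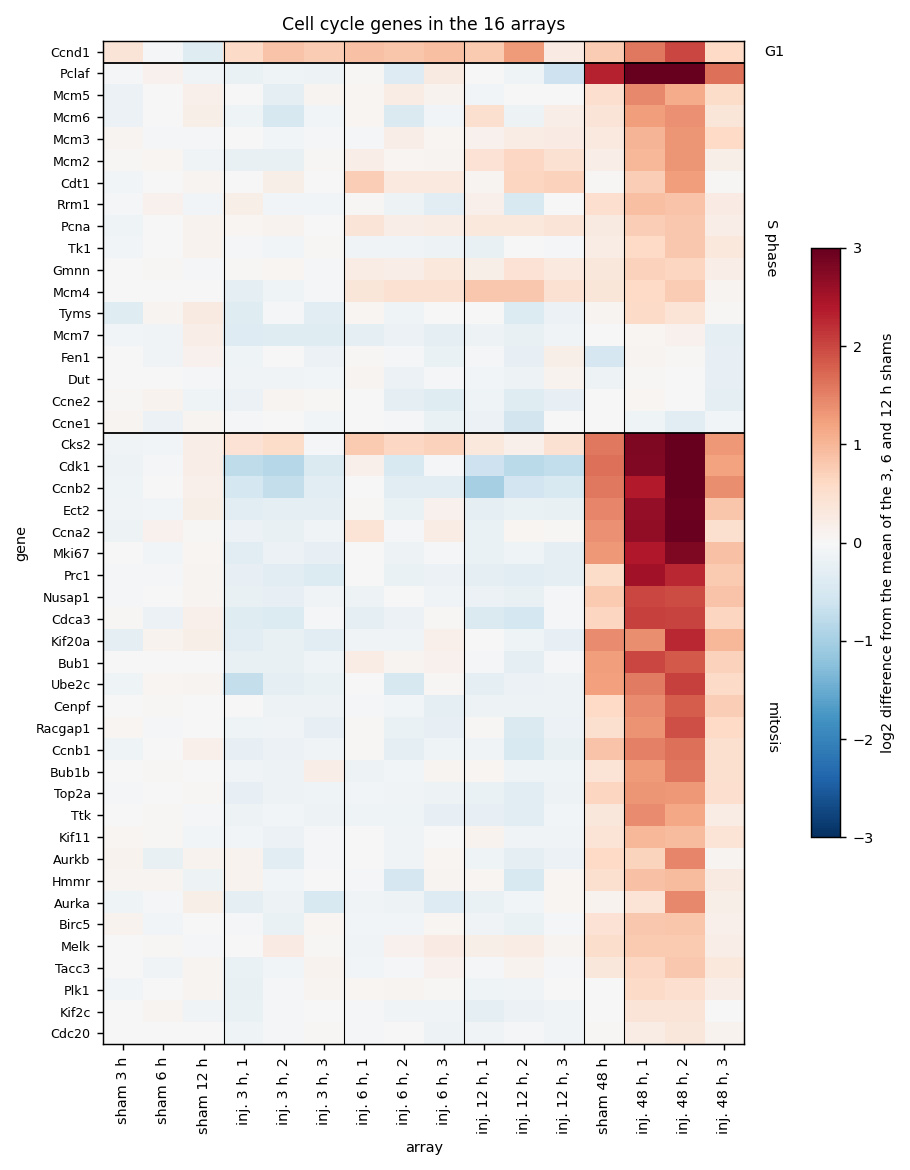
Log2 difference of each of the 46 genes (rows, by list and by size of the 48 h difference) from the mean of the 3 early shams, in each of the 16 arrays (columns). Red is higher, blue is lower, and the colour scale ends at 3, which Pclaf, Cks2, Cdk1 and Ccnb2 passed in single arrays. Apart from Ccnd1, red in every injured array, strong colour gathers in the 4 arrays of 48 h, the sham among them, and injured 48 h replicate 3 is paler than the other 2 injured arrays of that time.

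Against the early shams, 35 of 46 members were higher in the injured cortex at 48 h and none was lower, where 6.37% of all genes were higher and 3.32% lower. The 35 were Ccnd1, 10 of 17 S phase genes and 24 of 28 mitosis genes. The median difference was 1.26 over the mitosis genes and 0.57 over the S phase genes, beside -0.01 over all genes. All 3 injured arrays lay above all 3 early shams in 36 of 46 members and below them in none, where 14.7% and 14.8% of all genes did so. The single 48 h sham stood above all 3 early shams in 36 of 46 members as well (27.4% of all genes did so), and in the comparison with that sham no member was called. Injury and time cannot be told apart in the comparison with the early shams. With quantile normalization its median member was 0.53 in place of 0.89, and in a fit of these 6 arrays alone 14 members were called. The share of all genes called in that smaller fit is not given here, so the drop is not read as a trait of the members. When each of the 6 arrays was left out in turn, 22 of the 35 members were called every time. The other 13, whose call was lost at least once, were Ccnd1, Mcm2, Mcm4, Mcm6, Pcna, Rrm1, Gmnn, Ccna2, Birc5, Plk1, Ttk, Melk and Hmmr, and among them Mcm2, Mcm4, Rrm1 and Hmmr were called in 1 of the 6 fits.

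The S phase gene with the largest change was Pclaf, whose protein binds the replication clamp PCNA at forks. Its values were 3.67, 3.60 and 1.68 in the injured 48 h arrays, 2.32 in the 48 h sham and -0.01, 0.16 and -0.09 in the early shams. The earlier injured arrays lay near the early shams, at -0.17, -0.11 and -0.14 at 3 h, 0.06, -0.37 and 0.30 at 6 h, and 0.01, -0.11 and -0.60 at 12 h. All 4 arrays of 48 h were above the other 12, the sham among them. The rise against the early shams was 2.96 ± 0.39, or 7.80-fold (limma, adjusted p = 0.00099), and the sham by itself was 2.30 ± 0.55 above them (adjusted p = 0.36).

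Next came the subunits of the MCM helicase, the ring that opens the double helix ahead of the fork. Mcm5 stood at 1.37, 1.05 and 0.49 in the injured 48 h arrays, 0.44 in the 48 h sham and -0.25, -0.05 and 0.09 in the early shams, a rise of 1.04 ± 0.17 (adjusted p = 0.0028). In the injured arrays of 3, 6 and 12 h it kept between -0.35 and 0.15. Mcm6 stood at 1.22, 1.33 and 0.33, with 0.36 in the 48 h sham and -0.22, -0.02 and 0.13 in the early shams (1.0 ± 0.23, adjusted p = 0.018). In both genes the third injured array was close to the 48 h sham and above every early sham.

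Mcm3 followed with 0.90, 1.22 and 0.48 at 48 h, 0.19 in the 48 h sham and -0.02, -0.14 and -0.17 in the early shams (0.98 ± 0.14, adjusted p = 0.0014). All 3 injured arrays lay above the 48 h sham and above every early sham. Mcm2 had 0.87, 1.20 and 0.05, with 0.08 in the 48 h sham and -0.09, -0.06 and -0.23 in the early shams (0.83 ± 0.20, adjusted p = 0.021). Here the third array and the sham were alike, and only the first 2 arrays stood well above. Mcm4 had 0.24, 0.41 and -0.27 in the injured arrays and 0 in the 48 h sham, and was called by a narrow margin against the early shams (0.48 ± 0.14, adjusted p = 0.0497). Mcm7, the remaining subunit, did not pass. Its injured 48 h arrays were 0.22, 0.28 and -0.13, of which the first 2 lay within the range of its early shams (0.08, 0.04 and 0.35) and the third below it, and its difference was -0.03 ± 0.10.

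Of the enzymes that supply nucleotides, Rrm1, a subunit of ribonucleotide reductase, was higher in injured cortex, with 0.89, 0.85 and 0.24 at 48 h against -0.05, 0.11 and -0.11 in the early shams (0.68 ± 0.18, adjusted p = 0.030). Its 48 h sham was 0.48, above the third injured array. Tk1, thymidine kinase, had 0.61, 0.81 and 0.34, a 48 h sham at 0.23 and early shams at -0.06, -0.01 and 0.11 (0.57 ± 0.10, adjusted p = 0.0050). Its 3 probe sets disagreed, with differences from 0.04 to 1.08. In the injured arrays of 3 to 12 h Rrm1 ran from -0.47 to 0.16 and Tk1 from -0.20 to 0.05. Tyms and Dut, which make and guard thymidine nucleotides, did not pass, at 0.33 ± 0.17 and -0.06 ± 0.09.

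Pcna itself, the sliding clamp, had 0.52, 0.59 and -0.01 at 48 h, 0.06 in the 48 h sham and -0.34, -0.21 and -0.10 in the early shams (0.58 ± 0.13, adjusted p = 0.012). Gmnn, which encodes geminin, the inhibitor of licensing, had 0.49, 0.45 and 0, with 0.14 in the 48 h sham and -0.19, -0.15 and -0.25 in the early shams (0.51 ± 0.11, adjusted p = 0.014). The third injured array lay below the 48 h sham in both genes and above every early sham. The 2 probe sets of Gmnn gave differences of 0.21 and 0.80. Cdt1, the licensing factor that geminin blocks, reached 0.61 and 1.13 in the first 2 injured arrays but -0.08 in the third, beside -0.10 in the 48 h sham, and its 0.68 ± 0.24 did not pass (adjusted p = 0.093). The E-type cyclins, which drive entry into S phase, did not pass either, with -0.17 ± 0.12 for Ccne1 and -0.07 ± 0.12 for Ccne2. Fen1, which trims Okazaki fragments, was at -0.05 ± 0.12.

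Among mitosis genes, Cks2, Cdk1 and Ccnb2 had the largest rises. Cdk1, the kinase that starts mitosis, had 2.88, 3.33 and 1.32 in the injured 48 h arrays and 1.77 in the 48 h sham, against -0.04, 0.05 and 0.32 in the early shams. Its earlier injured values were -0.66, -0.75 and -0.32 at 3 h, 0.26, -0.35 and 0.04 at 6 h, and -0.52, -0.69 and -0.62 at 12 h. The 4 arrays of 48 h were above all others. The rise was 2.40 ± 0.36, or 5.28-fold, against the early shams (adjusted p = 0.0018) and 3.12 ± 0.36 from 12 to 48 h (adjusted p = 0.00019).

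Cks2, a small subunit that binds Cdk1, had 2.28, 2.81 and 0.80 at 48 h, 1.08 in the 48 h sham and -0.62, -0.59 and -0.32 in the early shams (2.47 ± 0.35, adjusted p = 0.0014). The injured arrays of 3, 6 and 12 h ran from -0.56 to 0.28, and 7 of the 9 were above every early sham. The cyclin B gene Ccnb2 had 2.60, 3.29 and 1.61, a 48 h sham at 1.81 and early shams at 0.09, 0.21 and 0.38 (2.27 ± 0.30, adjusted p = 0.00099). The cyclin A gene Ccna2 had 2.63 and 2.93 in the first 2 injured arrays but 0.44 in the third, below the 48 h sham at 1.33, with early shams at -0.19, 0.08 and -0.01 (2.04 ± 0.44, adjusted p = 0.012). Ccnb1, the other cyclin B gene, had 1.59, 1.75 and 0.57 with 0.95 in the 48 h sham (1.22 ± 0.23, adjusted p = 0.0056). In the injured arrays of 3 to 12 h these 3 cyclins ran from -0.77 to 0.38.

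Mki67, which encodes the proliferation antigen Ki-67, had 2.48, 2.87 and 0.96 at 48 h, 1.37 in the 48 h sham and 0.09, -0.01 and 0.14 in the early shams (2.03 ± 0.32, adjusted p = 0.0023). In the injured arrays before 48 h it ran from -0.27 to 0.06. Top2a, the topoisomerase that untangles sister chromatids, had 1.40, 1.38 and 0.59 with 0.72 in the 48 h sham (1.04 ± 0.16, adjusted p = 0.0018), although its 2 probe sets gave 0.43 and 1.65. In these genes the third injured array lay between the early shams and the 48 h sham.

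Genes of division itself rose as well. Ect2, which activates RhoA at the division plane, had 2.73, 3.04 and 0.93, a 48 h sham at 1.55 and early shams at -0.01, 0.01 and 0.27 (2.14 ± 0.37, adjusted p = 0.0035). Prc1, which bundles the central spindle, had 2.62, 2.37 and 0.89, against 0.65 in the 48 h sham and 0.06, 0.06 and 0.20 in the early shams (1.85 ± 0.30, adjusted p = 0.0026). Prc1 was the member in which the injured arrays exceeded the 48 h sham by most, 1.31 ± 0.42 (adjusted p = 0.50). Racgap1, a partner of Ect2, rose by 1.30 ± 0.23 from injured values of 1.34, 1.94 and 0.60, with probe sets at 0.79 and 1.80. The kinesin Kif20a had 1.44, 2.31 and 1.05 in the injured arrays with the 48 h sham among them at 1.46 (1.55 ± 0.23, adjusted p = 0.0018). Before 48 h none of these 4 genes was above 0.21 in an injured array.

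The rises of 8 spindle and kinetochore genes ran from 0.58 to 1.61. Nusap1, which bundles spindle microtubules, had 2.05, 2.01 and 0.90 with 0.83 in the 48 h sham and rose by 1.61 ± 0.22 (adjusted p = 0.0011). Cenpf, a protein of the outer kinetochore, had 1.44, 1.84 and 0.78 with 0.63 in the 48 h sham and rose by 1.32 ± 0.18 (adjusted p = 0.0012). The checkpoint kinase Bub1 had 1.99, 1.82 and 0.69 with 1.24 in the 48 h sham and early shams within 0.03 of 0 (1.51 ± 0.23, adjusted p = 0.0020). Its relative Bub1b had 1.26, 1.60 and 0.46 with 0.39 in that sham (1.12 ± 0.21). The checkpoint kinase Ttk had 1.52, 1.26 and 0.33 with 0.43 (0.94 ± 0.21, probe sets at 0.29 and 1.59). The spindle motor Kif11 had 0.95, 0.90 and 0.37 with 0.37 (0.79 ± 0.13), Tacc3, which stabilises spindle fibres, 0.60, 0.78 and 0.29 with 0.32 (0.58 ± 0.12, probe sets at -0.02 and 1.18), and Hmmr, a spindle assembly factor, 0.87, 0.93 and 0.25 with 0.48 (0.70 ± 0.19). In every one of these genes the first 2 injured arrays stood above the 48 h sham, and the third was close to it or below. Over these 8 genes the early shams ran from -0.17 to 0.13 and the injured arrays of 3 to 12 h from -0.51 to 0.22.

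The remaining 9 mitosis genes completed the list. Cdca3, a trigger of mitotic entry, had 2.11, 2.09 and 0.71 with 0.72 in the 48 h sham (1.57 ± 0.28, adjusted p = 0.0045). Ube2c, the ubiquitin-conjugating enzyme of the anaphase-promoting complex, had 1.61, 2.10 and 0.63 with 1.28 (1.39 ± 0.27, adjusted p = 0.0074). In both, the third injured array was level with the sham or below it. Smaller rises were called for Birc5, which encodes survivin, with 0.85, 0.88 and 0.20 and a sham at 0.48 (0.60 ± 0.14). The kinase Melk had 0.63, 0.63 and 0.05 with a sham at 0.37 (0.59 ± 0.14), and the polo kinase Plk1 0.55, 0.48 and 0.18 with a sham at -0.02 (0.43 ± 0.10). The Aurora kinases, which build the spindle and steer its attachment, did not pass, and their second injured array was far above the others. Aurka had 0.50, 1.53 and 0.27 (0.67 ± 0.24, adjusted p = 0.088) and Aurkb 0.64, 1.44 and 0.06 (0.73 ± 0.24, adjusted p = 0.073). Cdc20, which activates the anaphase-promoting complex, and the kinesin Kif2c also did not, at 0.22 ± 0.07 (adjusted p = 0.075) and 0.26 ± 0.10 (adjusted p = 0.13). The 5 probe sets of Cdc20 ranged from -0.10 to 0.63. Over these 9 genes the early shams ran from -0.24 to 0.28 and the injured arrays of 3 to 12 h from -0.66 to 0.15.

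The 48 h sham, shown apart, had no member called against the early shams, and neither had it a gene called higher among all 14218 (limma; 1 gene, or 0.00703%, was lower). With quantile normalization 9 members were called, all higher, and so were 9 in a fit of these 4 arrays alone (29 and 70 of all genes were called). At an unadjusted p under 0.05 there were 17 members, 15 of them mitosis genes, and 6.84% of all genes. The median member was 0.46 above the early shams, and 2 members were below all of them (28.3% of all genes). The largest values after Pclaf were 1.66 ± 0.51 for Cdk1 (adjusted p = 0.53), 1.59 ± 0.50 for Cks2, 1.58 ± 0.42 for Ccnb2, 1.46 ± 0.52 for Ect2 and 1.41 ± 0.33 for Kif20a. Fen1 went the other way, at -0.46 in the 48 h sham against 0.02, -0.06 and 0.17 in the early shams (-0.50 ± 0.16, adjusted p = 0.57). A single array was compared here, with a spread borrowed from the other groups.

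**Figure D2:**
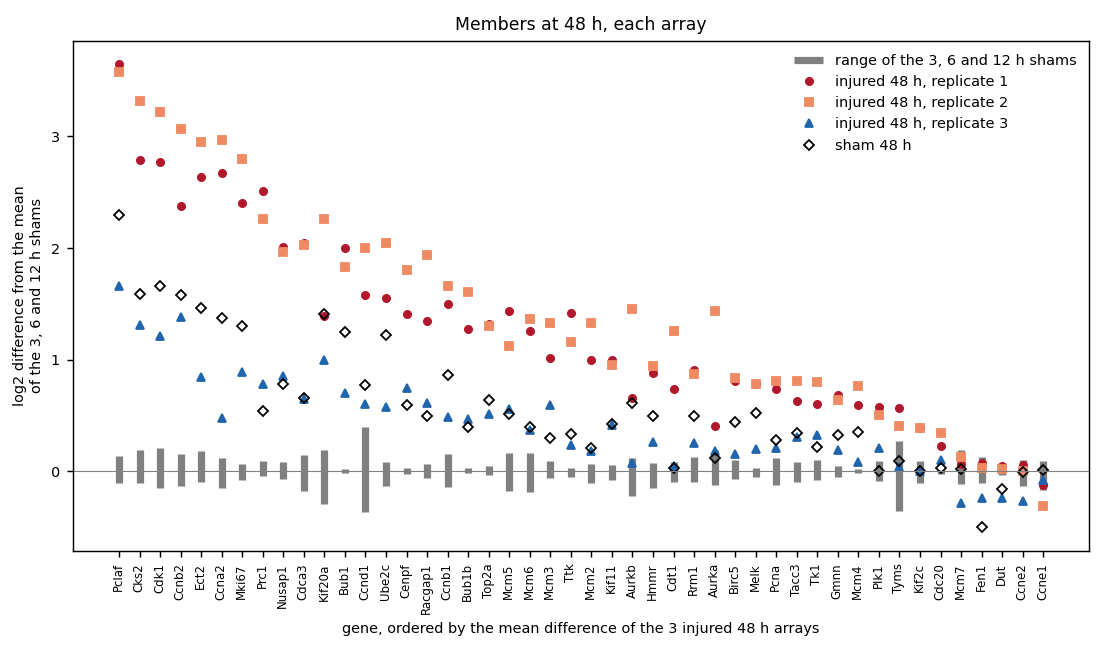
Log2 difference from the mean of the early shams (vertical axis) of the 46 genes, ordered by the mean of the injured 48 h arrays (horizontal axis). Grey bars span the 3 early shams, filled symbols are the 3 injured 48 h arrays and open diamonds the 48 h sham. Replicates 1 and 2 lie above the sham in 44 and 45 genes and replicate 3 in 14.

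The 3 injured arrays of 48 h did not behave alike. Replicate 3 was the lowest of the 3 in 45 of 46 members (33.8% of all genes), Ccne1 being the exception. It lay above the 48 h sham in 14 members and below it in 32, and among the 28 mitosis genes above it in 9. Replicates 1 and 2 lay above that sham in 44 and 45 members. Of all genes, 49.2%, 46.7% and 49.7% were above the sham in replicates 1, 2 and 3. The median member was 1.0, 1.31 and 0.34 above the mean of the early shams in replicates 1, 2 and 3, and 0.46 above it in the 48 h sham. For mitosis genes these medians were 1.40, 1.73, 0.50 and 0.60, and for S phase genes 0.68, 0.80, 0.18 and 0.21. Replicate 3 was still above all early shams in 36 of 46 members (29.8% of all genes).

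Against the 48 h sham no member was called. Of 46 members 43 had a positive difference (49.4% of all genes had one), with a median of 0.41, and 12 had an unadjusted p under 0.05 (7.46% of all genes). All 3 injured arrays lay above that sham in 14 members and below it in 1 (25% and 26% of all genes). Among all genes none was called either (0%). After Prc1, differences with an unadjusted p under 0.05 included Nusap1 (0.83 ± 0.31), Cenpf (0.72 ± 0.26), Mcm3 (0.68 ± 0.20) and Plk1 (0.42 ± 0.14), with adjusted p from 0.49 to 0.55. Without injured 48 h replicate 3, 18 members were called against this sham, all higher, and 0.788% of all genes were called higher. They were Mcm2, Mcm3 and Pclaf of S phase and, for the rest, mitosis genes, led by Prc1 (1.85), Cks2 (1.47), Ccna2 (1.45) and Cdca3 (1.38). Replicate 3 was the lowest of the 3 injured arrays in 45 of 46 members. Leaving it out therefore raises their differences by construction, and no conclusion is drawn from these calls. No call was made without replicate 1 or without replicate 2. Against the early shams, 40 members were called without replicate 3, where 9.09% of all genes were higher and 5.36% lower. Without replicate 1 there were 22 (3.57% and 1.53% of all genes), and without replicate 2 also 22 (2.84% and 0.549%).

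**Figure D3:**
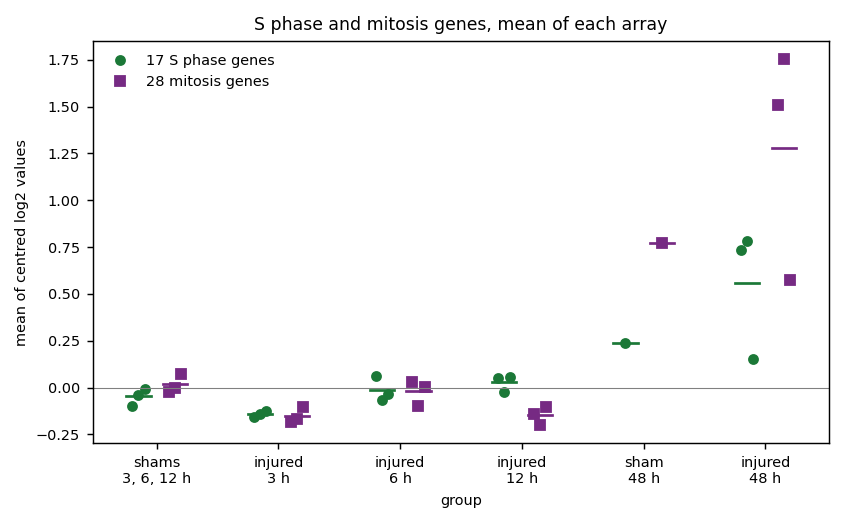
Mean of the 17 S phase genes (green circles) and of the 28 mitosis genes (purple squares) in each array, as centred log2 values, with a line at each group's mean. Both lists stay between -0.20 and 0.07 until 12 h. At 48 h mitosis genes stand above S phase genes in every array, 0.77 against 0.24 in the sham and 1.51, 1.75 and 0.57 against 0.73, 0.78 and 0.15 in the injured arrays.

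Between 12 and 48 h in injured cortex, 33 of 46 members rose and none fell (8.19% and 7.14% of all genes). Mitosis genes were 27 of 28, with a median of 1.47, and S phase genes were 6 of 17, with a median of 0.25. The S phase genes that rose were Pclaf (3.22 ± 0.39, adjusted p = 0.00028), Mcm5 (1.08 ± 0.17), Mcm6 (0.82 ± 0.23), Mcm3 (0.78 ± 0.14), Rrm1 (0.78 ± 0.18) and Tk1 (0.65 ± 0.10). Melk was the mitosis gene that missed the threshold (0.43 ± 0.14, adjusted p = 0.0502). In a fit of these 6 arrays alone 11 members were called, a count given without the share of all genes and not read as a trait of the members. The calls of Mcm6, Rrm1, Aurka, Aurkb, Cdc20, Kif2c and Hmmr were lost in at least 1 fit without a single array. This step and the comparison with the early shams share the injured 48 h arrays, and 29 members were called in both. Called against the early shams alone were Ccnd1, Mcm2, Mcm4, Pcna, Gmnn and Melk, and in the step alone Aurka, Aurkb, Cdc20 and Kif2c. In all 6 of the former, every injured array of 12 h was above the mean of the early shams. The way these 6 were picked favours such values, so no conclusion is drawn from it.

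No member was called at 3 h, where 0.485% of all genes were higher and 0.0985% lower, or at 6 h (1.98% and 0.682%), and 1 was called at 12 h (3.49% and 1.38%). At an unadjusted p under 0.05 there were 2, 4 and 6 members at the 3 times, or 9.55%, 14.3% and 20.5% of all genes. No member was called between 3 and 6 h (0.795% of all genes higher, 0.401% lower) or between 6 and 12 h (0% and 0.0141%), and 1 and 0 members had an unadjusted p under 0.05 (14.7% and 8.78% of all genes). The member called at 12 h was Mcm4. Its values were -0.33, -0.36 and -0.37 in the early shams, -0.63, -0.49 and -0.42 at 3 h, 0, 0.11 and 0.11 at 6 h, and 0.45, 0.45 and 0.10 at 12 h. It was thus below every early sham at 3 h and above every early sham at 6 and 12 h. The rise at 12 h was 0.69 ± 0.14 (adjusted p = 0.014), after 0.43 ± 0.14 at 6 h (adjusted p = 0.16). The call at 12 h was lost without replicate 2 of that time, whose spike-in controls were low, and without the 6 h sham, with adjusted p up to 0.063, and with the 12 h sham alone as control (adjusted p = 0.28).

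At 12 h, 5 of 17 S phase genes, Mcm4 among them, had all 3 injured arrays above all early shams and none had them below, where 10.5% and 11% of all genes did. Mcm2 had 0.30, 0.50 and 0.33 at 12 h after -0.36, -0.34 and -0.09 at 3 h and 0.07, -0.07 and -0.05 at 6 h (12 h against early shams, 0.50 ± 0.20, adjusted p = 0.18). Pcna had 0.10, 0.10 and 0.16 at 12 h (0.34 ± 0.13, adjusted p = 0.15) and Gmnn -0.03, 0.25 and 0.10 (0.30 ± 0.11, adjusted p = 0.15). Mcm3 had 0.02, 0.11 and 0.14 (0.20 ± 0.14, adjusted p = 0.45). Cdt1 was high in all 3 arrays at 6 h, with 0.62, 0.16 and 0.16, and in 2 of 3 at 12 h, with -0.04, 0.51 and 0.56. Apart from Mcm4, none of these passed the test.

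Ccnd1, the cyclin through which growth signals open G1, lay above all early shams in every injured array of 3 and 6 h. Its values were -0.18, 0.10 and 0.02 at 3 h, 0.13, 0.08 and 0.15 at 6 h, and 0.04, 0.52 and -0.50 at 12 h. The early shams were -0.35 at 3 h, -0.79 at 6 h and -1.11 at 12 h, a wide spread and lower at each later time, with 1 array at each. The differences of 0.73, 0.87 and 0.77, each ± 0.31, did not pass (adjusted p = 0.47, 0.19 and 0.17). At 48 h the injured arrays were 0.83, 1.25 and -0.15 and the sham 0.02, and the difference of 1.39 ± 0.31 from the early shams was called (adjusted p = 0.013). The 48 h sham lay at the level of the injured arrays of 3 and 6 h.

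**Figure D4:**
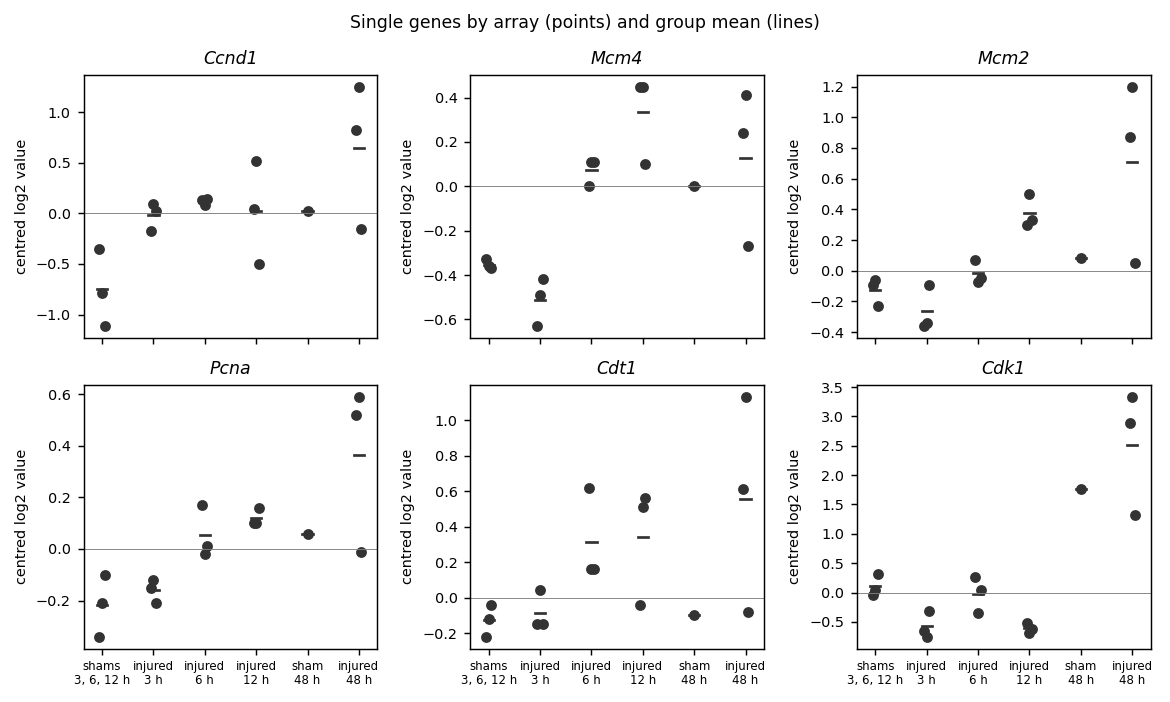
Centred log2 values of 6 genes in each array (points) with the group mean (lines), in panels with their own vertical scales. Mcm4, Mcm2 and Pcna are above the early shams at 12 h, Cdt1 is so in 2 of 3 arrays, Ccnd1 is above their mean from 3 h on, and Cdk1 is below them at 3 and 12 h and highest at 48 h.

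None of the 28 mitosis genes passed before 48 h. At 3 h all 3 injured arrays lay below all early shams in 12 of 28 mitosis genes and above them in none (10.3% and 7.5% of all genes). At 12 h they lay below in 11 of 28 and above in 1 (11% and 10.5% of all genes). At 3 h the S phase genes lay low as well, with 4 of 17 below all early shams and none above. At 6 h, 2 of 17 S phase genes lay below all early shams and 4 above. Of 28 mitosis genes 3 lay below and 2 above at that time (12.8% and 10.8% of all genes). The largest differences were those of Cdk1, -0.69 ± 0.36 at 3 h (adjusted p = 0.61) and -0.72 ± 0.36 at 12 h (adjusted p = 0.28), and of Ccnb2, -0.52 ± 0.30 and -0.67 ± 0.30 (adjusted p = 0.64 and 0.22). The mean of the S phase genes minus that of the mitosis genes was 0.19, 0.18 and 0.16 in the 12 h arrays and -0.08, -0.04 and -0.08 in the early shams. At 48 h it had turned to -0.77, -0.97 and -0.42 in the injured arrays and -0.53 in the sham. No test was run on these means, since the genes were chosen with results known.

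Other genes of the pathway were read from lists that hold none of the members. Of 40 measured genes of mitosis, 19 were higher at 48 h against the early shams and none lower. Pimreg, a mitotic regulator, rose by 1.91 ± 0.38, the mitotic kinase Pbk by 1.81 ± 0.25, the kinetochore genes Nuf2, Spc25 and Spc24 by 1.46 ± 0.29, 1.26 ± 0.24 and 1.04 ± 0.18, securin (Pttg1) by 1.40 ± 0.21, the spindle pole gene Aspm by 1.36 ± 0.31 and the kinesin Kifc1 by 1.17 ± 0.28 (adjusted p from 0.0012 to 0.019). Of 31 further replication genes, 5 were higher and none lower. These were the polymerase alpha and primase genes Pola1 (0.97 ± 0.27) and Prim2 (0.51 ± 0.14), the GINS genes Gins1 (0.79 ± 0.16) and Gins4 (0.73 ± 0.14), whose complex activates the helicase, and the ligase Lig1 (0.49 ± 0.09). Beside 6.37% of all genes called higher, the list medians were 0.48 for the mitosis list and 0.09 for the replication list. At 12 h against the early shams, 1 of the 40 genes of the mitosis list was higher and none lower (3.49% and 1.38% of all genes).

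Of 19 measured genes that control G1, 3 were higher at 48 h and none lower, beside the same 6.37% and 3.32% of all genes. They were the pocket protein gene Rbl1, which encodes p107 (1.79 ± 0.29, adjusted p = 0.0025), the cyclin Ccnd2 (0.49 ± 0.12) and its kinase Cdk4 (0.43 ± 0.12). Myc, a transcription factor that drives cells into the cycle, was called earlier, with 1.82 ± 0.28 at 6 h (adjusted p = 0.0027) and 1.86 ± 0.28 at 12 h (adjusted p = 0.0018), and fell by 1.14 from 12 to 48 h (SE 0.28, adjusted p = 0.015). E2f5, an E2F factor that represses, was higher at 12 h (0.84 ± 0.20, adjusted p = 0.024). Of 8 inhibitors of cyclin-dependent kinases, 3 were higher at 48 h and none lower. These were Cdkn3, a phosphatase whose target is the kinase itself (1.53 ± 0.41, adjusted p = 0.034), Cdkn1c (0.65 ± 0.17) and Cdkn2c (0.39 ± 0.08).

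Members with the motifs shown above were set beside those without them. At 48 h the 9 S phase genes with an E2F word had a median difference of 0.83 from the early shams, with 6 called, and the 6 without had 0.26, with 3 called. The ranges overlapped, from -0.03 to 2.96 and from -0.17 to 0.68. Mitosis genes with a CHR had a median of 1.22 (15 of 16 called) and those without 1.0 (6 of 8 called). At 12 h the medians were 0.18 and -0.06 for S phase genes with and without an E2F word, and -0.15 and -0.13 for mitosis genes with and without a CHR. These are descriptions of few genes, with no test.

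Markers of cell types that can divide, or that enter injured tissue, were read in the same arrays of 48 h, and some lists were higher there. Beside each count of markers stands the same 6.37% of all genes called higher. The 10 measured microglial markers averaged 1.17, 1.72 and 1.12 in the injured arrays, 0.46 in the 48 h sham and 0.26, 0.08 and -0.02 in the early shams, and 8 of 10 were called higher than in the early shams. For 11 monocyte and macrophage markers the means were 0.81, 1.93 and 0.18 in the injured arrays, 0.23 in the 48 h sham and -0.47 to -0.46 in the early shams, with 5 higher. For 11 markers of reactive astrocytes they were 0.84, 1.61 and 0.36, -0.10, and -1.23 to -0.80, with 6 higher. Injured replicate 3 was the lowest of the 3 injured arrays in each of these 3 lists. It was close to replicate 1 in microglial markers alone.

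Of 9 markers of oligodendrocyte precursors 2 were higher, and their means of 0.55, 0.47 and 0.01 in the injured arrays, with 0.04 in the 48 h sham, had the third array near the sham. Meningeal and fibroblast markers, with 2 of 12 higher, averaged 1.02 in the 48 h sham and 0.66, 1.10 and 0.70 in the injured arrays, and thus had the sham within the injured range. Endothelial markers had 0 of 10 called (1 at an unadjusted p under 0.05 in limma), with 0.31, 0.46 and 0.14 in the injured arrays and 0.30 in the sham. Neutrophil markers had 1 of 7 higher, pericyte and smooth muscle markers 2 of 10, neural progenitor markers 1 of 9 and lymphocyte markers 0 of 9 (1 at an unadjusted p under 0.05 in limma). No list was at 0 in the sense of undetected, since centred values do not show detection, and the part of any of these cell types in the cell cycle genes was not tested.

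**Figure D5:**
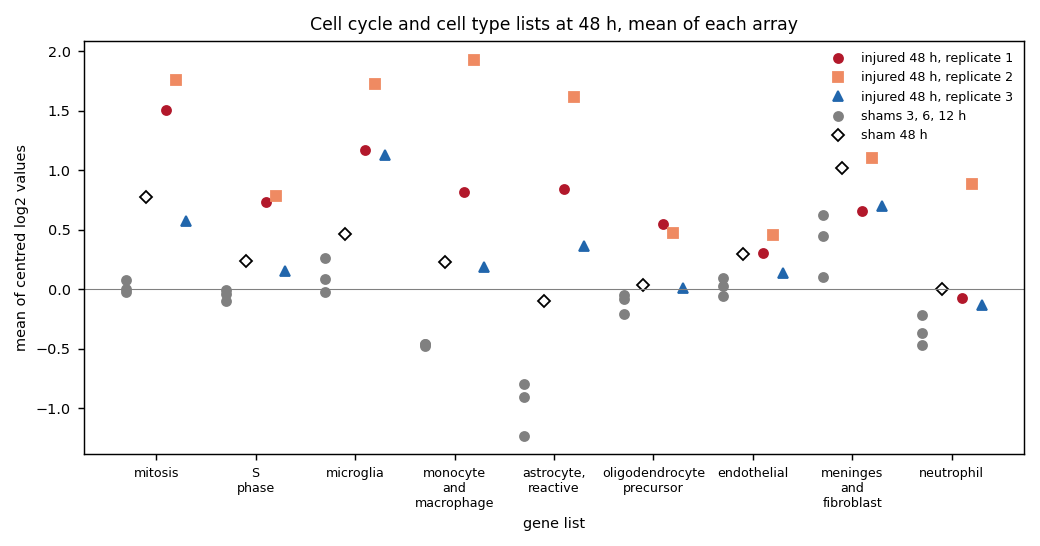
Mean centred log2 value (vertical axis) of the mitosis and S phase genes and of 7 cell type marker lists (horizontal axis) in the 3 early shams (grey), the 48 h sham (open diamonds) and the 3 injured 48 h arrays (coloured). Replicate 3 of the injured arrays is above the 48 h sham for microglial and reactive astrocyte markers alone. It is below that sham for mitosis and S phase genes and for all other marker lists shown.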

How the data were processed

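The deposited values are log intensities, per the submitters' processing notes from RMA (background correction, quantile normalization and probe set summary), and were read as log2, the base not being stated. The deposited table sets each of 31099 probe sets to a median of 0 across the 16 arrays. Polyadenylated RNA had been labelled for an Affymetrix rat array, per the labels' protocols. Probe sets with 1 gene symbol (20832) were averaged per gene, with symbols updated by gene identifier, which gave 14218 genes. The 436 with several symbols and the 9780 listed with none were left out. The 46 members came from 66 probe sets, and 15 members had several.

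Groups were compared in limma 3.58.1 (R 4.3.3) with 1 model of 6 groups (10 residual degrees of freedom), moderated tests and Benjamini-Hochberg adjustment over 14218 genes. The spread of the lone 48 h sham was taken to equal that of the other groups. The number of arrays limits the precision.

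The members and lists were chosen with earlier results of these data known. All members could be named, and of the other cell cycle lists up to 8 called genes each. Ranges replace single values for some members, a departure from the naming rule. Alternatives were another probe set rule, quantile normalization, median centring, a filter on spread, array weights, smaller fits, other shams, a replicate block, leaving out each array and, added after seeing the data, fits without the array of low spike-in signal and of the injured arrays alone.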

Additional observations from a re-analysis of the deposited data

Results flagged for a closer look

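In 11 mitosis genes all 3 injured arrays lay below all early shams at 12 h and above all of them at 48 h, and the rise between these times was called. The same pattern was found in 170 of all 14218 genes (1.2%). The rise was 3.12 for Cdk1 (from -0.72 to 2.40 against the early shams), 2.94 for Ccnb2 (from -0.67 to 2.27) and 2.38 for Ect2 (from -0.23 to 2.14). For Mki67 it was 2.24, for Prc1 2.16, for Bub1 1.64, for Ube2c 1.59, for Cenpf 1.47, for Top2a 1.27, for Ttk 1.15 and for Cdc20 0.32. None of the values at 12 h passed by itself. The injury effect at 48 h, against the 48 h sham, was also compared with that at 12 h, against the pooled early shams. Their difference called no member in limma (lowest adjusted p 0.32), where 29 of all 14218 genes were called. At an unadjusted p under 0.05 there were 16 members. All genes were not counted at that threshold, so no conclusion is drawn from the 16.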

How the results depend on the processing

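Depth does not exist for arrays, and 3 arrays a group with 1 sham at 48 h set the precision. Over all alternatives, values of single called members kept their call 799 times and lost it 130 times, and none reversed. Of the 35 members called at 48 h against the early shams, 22 kept the call with every array left out in turn and 14 under every alternative run. Of the 33 called from 12 to 48 h, 26 and 11 did.

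Leaving out 1 array gave 0 to 1 called members at 12 h, 0 to 18 at 48 h against the 48 h sham, 22 to 40 at 48 h against the early shams and 27 to 39 from 12 to 48 h. With a fit of only the groups compared, 3 members were called at 6 h, 3 at 12 h, 14 at 48 h against the early shams, 9 for the 48 h sham, 2 from 3 to 6 h and 11 from 12 to 48 h. Quantile normalization called 2 at 6 h, 3 at 12 h, 9 for the 48 h sham and 1 from 3 to 6 h, and moved the median member at 48 h from 0.89 to 0.53. Array weights called 2 at 3 h, 2 at 6 h and 1 from 3 to 6 h, and the 12 h sham alone as control called 0 at 12 h. The share of all genes called is not set beside these counts, so they are not read as a trait of the members. The cause of these changes was not tested.

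The replicate numbers showed no strong pairing of the arrays. After each group's mean was taken off, same-numbered arrays correlated by 0.09, 0.19 and 0.19 between 12 and 48 h. In the other steps they correlated by -0.19 to 0.06. With the replicate number as a block, 30 members were called from 12 to 48 h and 0 in the other 2 steps. In the same 12 injured arrays with no block, 32 were called from 12 to 48 h. Shares of all genes are not given beside these counts.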
